A study of Homo sapiens with 18 samples.

Results

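The genes described here are 42 genes of the ATF4 amino acid response and of tRNA charging, out of 58302 genes in the expression tables of an RNA-seq study of SYK knockdown in lung cancer cell lines. They are 28 targets tied to the transcription factor ATF4, 12 cytosolic aminoacyl-tRNA synthetases, the tRNA export receptor XPOT and the translation inhibitor EIF4EBP1, found in the tables by gene name under the older synthetase symbols (AARS, WARS and so on). The 28 targets were selected on EBC-1, since their list was drawn up with the shSYK minus nc differences of that line in view, so the EBC-1 values below are descriptions and carry no test. The PC-9 and HCC827 values were tested, although results of those lines were also known when the genes were chosen. All 42 genes were found in the tables of the 3 lines.

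The cells were 3 human lung cancer lines. EBC-1 carries MET amplification, and PC-9 and HCC827 carry EGFR exon deletion mutations. Cells of each line stably carried a single lentiviral shRNA against the tyrosine kinase SYK (shSYK) or were a negative control (nc). The study's methods do not describe the construct of the control. Each of the 6 groups held 3 libraries, 18 in all. Nothing in the labels says that the libraries of a group came from separate cultures, so the errors and p-values measure the spread between libraries, which may be technical, and a single shRNA leaves SYK loss and any off-target action of that hairpin impossible to tell apart.

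ATF4 is the transcription factor of the integrated stress response. Kinases that sense amino acid shortage, ER stress, heme loss or viral RNA phosphorylate the initiation factor eIF2, which lowers general translation while ATF4 protein is made more efficiently from its mRNA, a step that RNA-seq does not measure. ATF4 pairs with C/EBP family partners on C/EBP-ATF response elements and turns on enzymes of serine, glycine, proline, asparagine and cysteine synthesis, tRNA synthetases, and stress genes such as DDIT3 (CHOP), a pro-apoptotic factor, and TRIB3, a pseudokinase that restrains ATF4 itself.

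The response element was searched for as the letters TGATGNAA on both strands, in the 250 bases upstream of RefSeq gene starts (build GRCh38.p14). Of the 42 genes, 33 had a promoter in the table, with 51 promoters in all, and 7 genes had a match. The match was in 13.7% of the promoters of these genes and in 3.15% of all 35093 promoters on the primary chromosomes. The 7 sequences are shown because they place the element known for this family beside genes that moved differently below. Each is written 5′ to 3′ along the gene, ends at or before the gene start, and has the matching letters in capitals, read as the reverse complement for CHAC1, GARS, AARS and IARS.
CEBPG (chr19:33374031-33374112, plus strand): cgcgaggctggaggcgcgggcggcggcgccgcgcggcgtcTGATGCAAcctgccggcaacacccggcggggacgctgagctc
JDP2 (chr14:75427966-75428021, plus strand): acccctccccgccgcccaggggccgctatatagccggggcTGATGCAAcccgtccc
ASNS (chr7:97872429-97872516, minus strand): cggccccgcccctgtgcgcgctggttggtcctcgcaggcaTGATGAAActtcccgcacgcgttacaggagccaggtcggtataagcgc
CHAC1 (chr15:40953222-40953309, plus strand): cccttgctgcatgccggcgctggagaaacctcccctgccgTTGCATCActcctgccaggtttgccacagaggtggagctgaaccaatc
GARS (chr7:30594805-30594877, plus strand): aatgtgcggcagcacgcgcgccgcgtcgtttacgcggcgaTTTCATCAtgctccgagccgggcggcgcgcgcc
AARS (chr16:70289646-70289733, minus strand): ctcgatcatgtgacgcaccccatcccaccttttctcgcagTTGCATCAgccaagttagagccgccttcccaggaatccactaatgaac
IARS (chr9:92293698-92293750, minus strand): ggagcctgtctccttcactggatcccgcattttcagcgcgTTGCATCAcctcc
Both the CEBPG and the JDP2 match lay within 42 bases of the gene start, and those of AARS and CHAC1 lay 187 and 209 bases from it. A match describes letters in a window and is not a bound site. The 7 genes did not share a direction: in EBC-1 shSYK cells AARS, JDP2, ASNS and CHAC1 were lower than in nc cells in every library, while the libraries of CEBPG, GARS and IARS overlapped.

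Expression was read as FPKM, fragments normalised for gene length and a library denominator that is not stated. On this scale levels of different genes can be set side by side. Changes are given as the shSYK minus nc difference of log2(FPKM + 1), here called log2FC, which understates the change of weakly expressed genes. Each library held between 7920099 and 15729103 reads on genes. The summed FPKM did not overlap between the groups in EBC-1, at 267243 to 280477 in nc and 247177 to 253541 in shSYK libraries, and equalizing these sums raised the log2FC of the median gene of EBC-1 by 0.11. In nc cells of PC-9 the sum ran from 274907 to 342216, with nc 1 the highest and nc 2 the lowest. SYK itself kept 52.3% of its nc mean in EBC-1, with 32.1% for PC-9 and 32.9% for HCC827, and was lower in every shSYK library. The epithelial markers EPCAM (58.9 to 121 FPKM), CDH1, KRT8, KRT18 and KRT19 were present in all libraries. CDH1 was lower in shSYK libraries without overlap in every line, at 122 to 136 against 102 to 106 in EBC-1. It read 37.7 to 42.7 against 31.0 to 33.9 in PC-9 and 132 to 144 against 97.1 to 111 in HCC827. KRT19 was also lower without overlap in EBC-1 and HCC827, and KRT18 in EBC-1, while EPCAM was higher in EBC-1 and PC-9. The fibroblast marker COL1A1 read 0.945 to 8.29, and the leukocyte markers PTPRC, CD3E and CD68 together stayed at or below 0.203 FPKM. The summed endothelial markers of PC-9 were at 15.03 to 17.05 in nc and 6.62 to 7.91 in shSYK libraries. PECAM1 alone carried this gap, at 12.7 to 14.4 against 4.28 to 5.34, while CDH5 (2.16 to 2.57 against 2.28 to 2.51) and VWF overlapped. In bulk RNA, fewer cells of a type and less RNA per cell cannot be told apart, and the part of these markers in the PC-9 results was not tested.

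In EBC-1 the ATF4 targets were mostly lower after SYK knockdown. Of the 42 genes, 39 averaged 1 FPKM or more in that line and passed the filter, and 25 of these had every shSYK library below every nc library, where 27.2% of the 12430 genes tested did. In the other direction 4 did, against 29.7% of all genes, and 10 overlapped. The median log2FC of the 39 genes was -0.50, beside 0.01 for all genes tested. On the log2FC scale 9 of the 39 were lower by at least 1, as were 298 of all 12430 genes tested. Since the contrast chose most of these genes, nothing is read from the counts. EBC-1 nc 2 held the highest nc value of 20 of the 39 genes, and without it the count of genes higher in shSYK was 10 and the count lower was 25. The shares over all genes without nc 2 were not computed.

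In PC-9, 40 genes passed the filter. Without overlap, 13 were higher in shSYK cells and 3 were lower, beside 11.4% and 12.3% of the 12089 genes tested. With limma and Benjamini-Hochberg adjustment over all genes, 0 of the 40 passed an adjusted p of 0.05 in either direction, where 0.678% of all genes were called higher and 1.41% lower. At an unadjusted p under 0.05 there were 12, beside 1881 of all 12089 genes tested. limma-voom on reads recovered from the FPKM called 5 higher (TRIB3, NUPR1, MTHFD2, VLDLR and GARS) and 1 lower (JDP2). PC-9 nc 1 held the highest nc value of 30 of the 40 genes. Without that library limma called 7 genes higher, among them TRIB3 at a log2FC of 0.87 (adjusted p = 0.00922), and 24 were higher without overlap. The shares over all genes were not computed for limma-voom or for the fit without nc 1. Fewer libraries also make non-overlap easier to reach, and these counts have no background beside them.

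In HCC827, 40 genes passed the filter, and 11 rose and 8 fell by limma, beside 17.2% of the 11999 genes tested called higher and 20.7% called lower. Without overlap, 12 were higher and 8 lower, beside 24.7% and 27.6%. The median log2FC was 0.05, and -0.01 over all genes tested, so the share that fell was near the background and the share that rose was somewhat above it. HCC827 nc 3 held the highest nc value of 33 of the 40 genes, and without it 21 genes were higher without overlap and limma called 13 higher. The shares over all genes without nc 3 were not computed, so these 2 counts have no background beside them. Of the 19 calls, those of CEBPG, PHGDH, PSPH, GPT2, GDF15, STC2, TARS and IARS were kept under all 14 alternatives of scale, filter, test and left-out library, while DDIT4 lost its call under 10, NARS under 9, CHAC1 under 6, EPRS and LARS under 5 each, CEBPB under 4, PCK2 under 3, CTH under 2, and SHMT2, VLDLR and XPOT under 1 each.

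**Figure D1:**
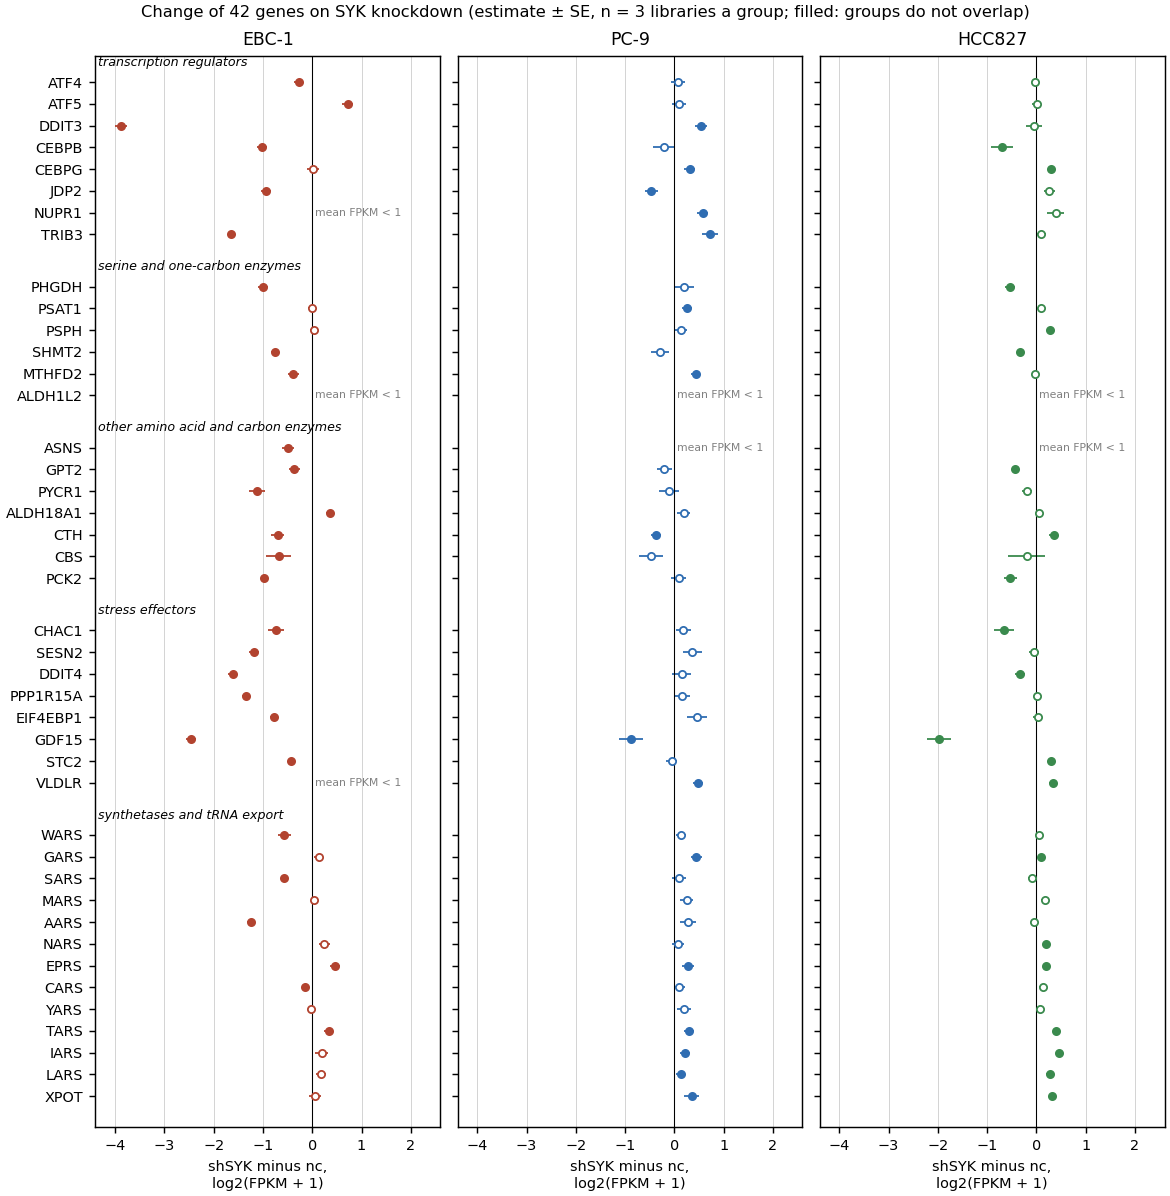
Change of each of the 42 genes by cell line and functional group, as the shSYK minus nc difference of log2(FPKM + 1) with its standard error (n = 3 libraries a group), where filled points mark genes whose groups did not overlap. EBC-1 points reach -3.88 at DDIT3, with all 7 tested stress effectors to the left of 0, while in PC-9 all 13 synthetase and export genes lie to the right of 0.

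The transcription regulators begin with ATF4 itself, whose mRNA was abundant in all 3 lines and differed little between groups. In EBC-1, ATF4 read 132, 134 and 123 FPKM in the nc libraries and 109, 117 and 96.3 in the shSYK libraries. The groups did not overlap, at a log2FC of -0.28 (SE 0.08). With equal library sums this was -0.15 and the groups overlapped, and with quantile normalization it was -0.13. In PC-9 it read 261, 188 and 224 in nc and 225, 242 and 240 in shSYK libraries, with the shSYK values inside the nc range (log2FC 0.08, adjusted p = 0.852). HCC827 gave 137, 134 and 141 in nc and 137, 130 and 136 in shSYK libraries (log2FC -0.03, adjusted p = 0.659), and this small difference changed sign when libraries were rescaled.

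DDIT3, the CHOP transcription factor, had the lowest log2FC of all 12430 genes tested in EBC-1. It read 179, 189 and 146 FPKM in nc and 9.77, 10.1 and 12.1 in shSYK libraries. The nc mean was 171 ± 22.9 (SD, n = 3) and the shSYK mean 10.6 ± 1.26, a 16.1-fold difference. The gene (chr12:57516588-57520517, minus strand, GRCh38) overlaps the synthetase gene MARS by 982 bases on the opposite strand, and whether reads were counted by strand is not stated. MARS read 30.6, 29.5 and 32.2 in nc and 32.1, 33.5 and 29.3 in shSYK libraries of EBC-1, and its groups overlapped.

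In the EGFR-mutant lines DDIT3 was scarce. PC-9 nc libraries read 3.63, 3.94 and 4.24 FPKM and shSYK libraries 6.04, 7.19 and 5.29, higher in 3 of 3 with no overlap (log2FC 0.53, adjusted p = 0.0802). HCC827 read 8.09, 9.35 and 12.8 in nc and 8.14, 9.28 and 11.4 in shSYK libraries, which overlapped throughout (log2FC -0.05, adjusted p = 0.829). The EBC-1 shSYK level of 10.6 was thus near the nc level of HCC827.

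TRIB3, the ATF4-induced pseudokinase, went the same way in EBC-1. It read 146, 150 and 137 FPKM in nc and 47.0, 48.6 and 41.7 in shSYK libraries, 3.16-fold lower. PC-9 went from 29.9, 19.99 and 23.5 to 39.4, 37.5 and 44.6, a log2FC of 0.72 (SE 0.16) that missed the threshold at an adjusted p of 0.0723. HCC827 read 38.9, 39.2 and 51.1 in nc and 46.0, 44.7 and 46.5 in shSYK libraries (log2FC 0.10, adjusted p = 0.494). After knockdown the shSYK means of the 3 lines lay close together, at 45.8, 40.5 and 45.7 FPKM, having started from nc means of 145, 24.5 and 43.0.

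CEBPB, a C/EBP partner of ATF4, was lower in EBC-1 and fell in HCC827. EBC-1 read 264, 252 and 266 FPKM in nc and 131, 144 and 110 in shSYK libraries (log2FC -1.03). HCC827 read 40.2, 37.8 and 71.0 in nc and 30.8, 27.2 and 29.0 in shSYK libraries, a log2FC of -0.70 (adjusted p = 0.0374), with nc 3 far above the other nc libraries. Without nc 3 the log2FC was -0.42 (adjusted p = 0.00785), and the call was lost without a filter and without each shSYK library, at adjusted p values up to 0.127. In PC-9 the nc values of 269, 146 and 218 enclosed the shSYK values of 183, 156 and 192 (adjusted p = 0.727). CEBPG, the C/EBP partner with the element in its promoter, rose in HCC827 from 4.61, 4.90 and 4.78 to 5.99, 5.71 and 6.56 (log2FC 0.30, adjusted p = 0.0116). It was higher without overlap in PC-9 (log2FC 0.31, adjusted p = 0.243) and overlapped in EBC-1 (log2FC 0.01), where nc 2 was the highest library.

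NUPR1, a stress-induced chromatin protein, was nearly silent in EBC-1, at 0.209 to 0.402 FPKM over all 6 libraries. In PC-9 it read 3.49, 2.94 and 3.21 in nc and 4.68, 6.06 and 5.16 in shSYK libraries, without overlap (log2FC 0.57, adjusted p = 0.0529). HCC827 read 0.463, 0.690 and 1.26 in nc and 1.13, 1.41 and 1.47 in shSYK libraries, which overlapped at nc 3 (log2FC 0.39, adjusted p = 0.108). JDP2, a repressor of AP-1, was lower in EBC-1 (6.64 to 3.00 FPKM as means, log2FC -0.94) and in PC-9 (21.6 to 15.3, log2FC -0.47, adjusted p = 0.132), and its shSYK mean was above the nc mean in HCC827 (3.40 against 4.29, log2FC 0.26, adjusted p = 0.118). ATF5, a relative of ATF4, was higher in EBC-1, from a mean of 1.48 to 3.07 FPKM (log2FC 0.72), and overlapped in PC-9 (log2FC 0.10, adjusted p = 0.823) and HCC827 (log2FC 0.0014, adjusted p = 0.991). ATF5 overlaps IL4I1 and NUP62 on the opposite strand.

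**Figure D2:**
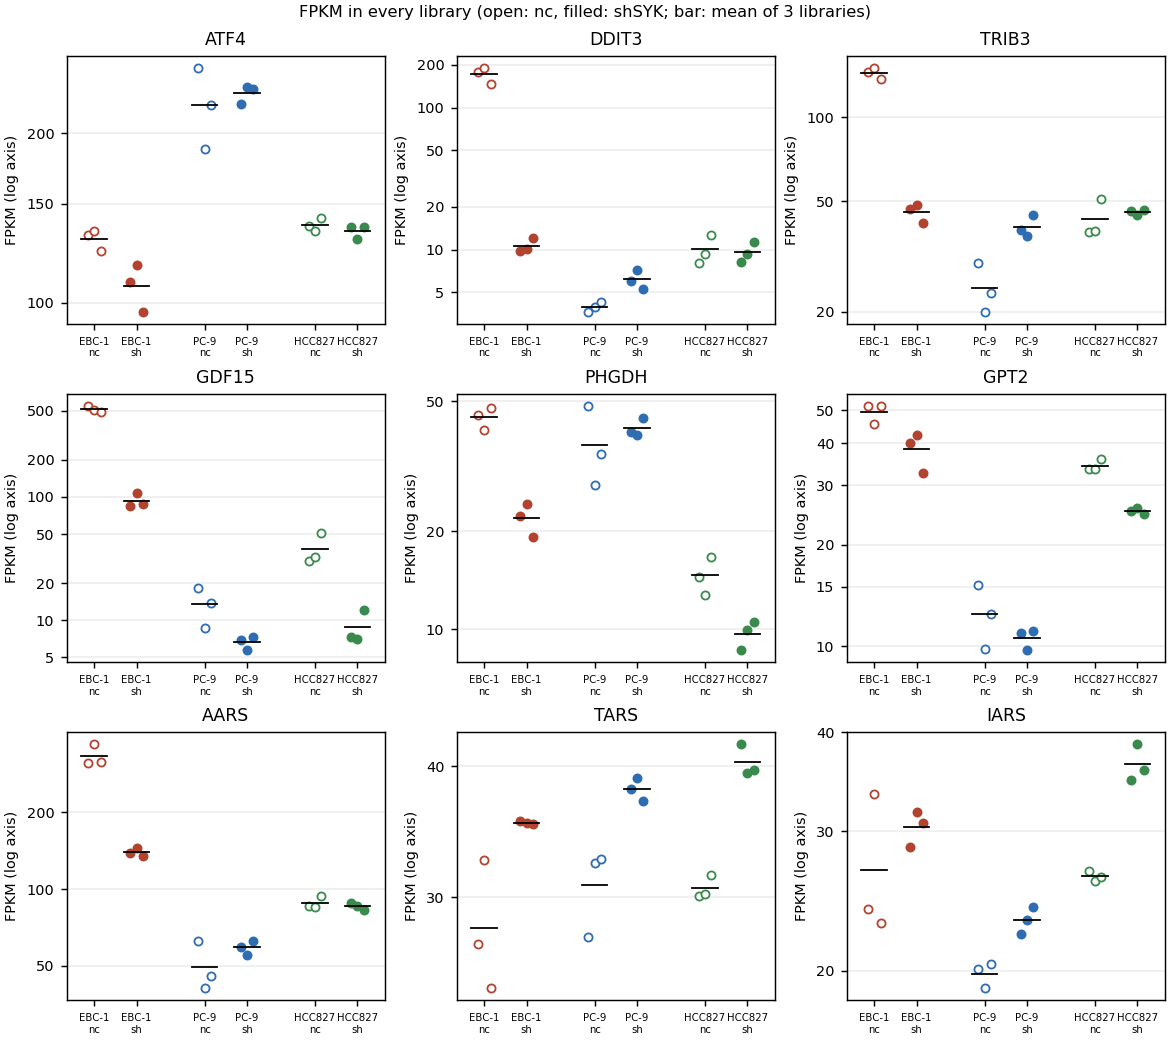
FPKM on a log axis in each of the 18 libraries for 9 of the genes, with open points for nc, filled points for shSYK and a bar at the mean of 3 libraries. DDIT3, GDF15 and AARS stand far higher in EBC-1 nc libraries than in any other group, while IARS and TARS sit higher in all HCC827 shSYK libraries than in the nc libraries.

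Serine made from glycolytic intermediates by PHGDH, PSAT1 and PSPH is split by the SHMT enzymes into glycine and a one-carbon unit. PHGDH was lower in EBC-1 and fell in HCC827, and PSPH did neither. PHGDH read 45.6, 40.8 and 47.7 FPKM in nc and 22.2, 24.3 and 19.2 in shSYK libraries of EBC-1 (log2FC -0.998). In HCC827 it fell from 14.5, 12.7 and 16.7 to 8.63, 9.96 and 10.5 (log2FC -0.54, SE 0.11, adjusted p = 0.00687). In PC-9 it read 48.3, 27.7 and 34.5 in nc and 40.2, 39.4 and 44.4 in shSYK libraries, inside the wide nc range (adjusted p = 0.704).

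PSPH, the phosphatase that releases serine, rose in HCC827 from 55.9, 56.1 and 57.4 FPKM to 69.1, 68.8 and 68.6 (log2FC 0.28, adjusted p = 0.00336). It overlapped in EBC-1 (log2FC 0.03) and in PC-9 (log2FC 0.13, adjusted p = 0.696). The transaminase PSAT1 overlapped in EBC-1 and HCC827 and was higher without overlap in PC-9 (log2FC 0.25, adjusted p = 0.277). PHGDH and PSPH, steps of the same pathway, thus went opposite ways in HCC827.

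SHMT2, the mitochondrial hydroxymethyltransferase, followed PHGDH. EBC-1 read 122, 122 and 127 FPKM in nc and 73.9, 77.6 and 65.8 in shSYK libraries (log2FC -0.76). HCC827 fell from 79.2, 78.3 and 86.1 to 66.3, 63.8 and 62.2 (log2FC -0.34, adjusted p = 0.00434). PC-9 read 75.1, 45.4 and 56.2 in nc and 44.3, 45.1 and 51.2 in shSYK libraries, which overlapped (log2FC -0.30, adjusted p = 0.504). MTHFD2, the mitochondrial folate dehydrogenase, was lower in EBC-1, at 21.7, 26.6 and 20.2 in nc and 17.2, 18.1 and 16.3 in shSYK libraries. It was higher in PC-9 in every library, at 18.5, 17.9 and 18.6 in nc and 24.9, 24.7 and 25.7 in shSYK libraries (log2FC 0.43, adjusted p = 0.0600). In HCC827 it overlapped (log2FC -0.02). ALDH1L2, a mitochondrial folate enzyme, had 3 to 38 reads in any library and was under the filter in all 3 lines.

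Among the other amino acid and carbon enzymes, 6 of 7 were lower without overlap in EBC-1, beside 27.2% of all genes. They were chosen with the EBC-1 differences in view, so nothing is read from the count. CBS entered it narrowly, at 1.699 FPKM in nc 1 against 1.690 in shSYK 3 of EBC-1. PYCR1, which makes proline in mitochondria, read 55.4, 53.4 and 60.1 FPKM in nc and 28.8, 29.8 and 19.1 in shSYK libraries there (log2FC -1.12). In HCC827 it read 40.9, 39.3 and 51.3 in nc and 39.8, 37.2 and 37.1 in shSYK libraries (log2FC -0.19, adjusted p = 0.170). In PC-9 it read 40.6, 23.3 and 29.2 in nc and 29.6, 24.6 and 29.8 in shSYK libraries (adjusted p = 0.859). ALDH18A1, the enzyme before it on the proline route, was the exception in EBC-1, going from 27.1, 25.6 and 28.7 in nc to 35.4, 36.5 and 33.4 in shSYK libraries (log2FC 0.36).

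GPT2, the mitochondrial alanine transaminase, fell in HCC827 from 33.6, 33.4 and 35.8 FPKM to 25.1, 25.7 and 24.6 (log2FC -0.43, SE 0.05, adjusted p = 0.00108). It was lower in EBC-1 with 51.4, 45.6 and 51.4 in nc and 40.1, 42.4 and 32.6 in shSYK libraries (log2FC -0.37), and overlapped in PC-9, at 15.1, 9.83 and 12.5 in nc and 10.9, 9.73 and 11.1 in shSYK libraries. PCK2, the mitochondrial PEP carboxykinase, read 8.83, 8.05 and 7.91 in nc and 3.89, 3.80 and 3.46 in shSYK libraries of EBC-1 (log2FC -0.97). It fell in HCC827 from 11.0, 10.4 and 15.3 to 7.79, 7.41 and 9.09 (log2FC -0.53, adjusted p = 0.0219), a call lost without a filter, without shSYK 1 and without shSYK 2. PC-9 read 14.7, 10.5 and 10.9 in nc and 13.1, 11.5 and 13.4 in shSYK libraries (adjusted p = 0.850). PCK2 overlaps NRL on the opposite strand, as 10 of the 42 genes overlap some other coding gene.

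CTH and CBS make cysteine from homocysteine. CTH was lower without overlap in EBC-1 (2.77 to 1.29 FPKM as means) and in PC-9 (3.21 to 2.26, log2FC -0.37, adjusted p = 0.133), and rose in HCC827 from 7.97, 9.24 and 10.3 to 11.98, 11.6 and 12.1 (log2FC 0.35, adjusted p = 0.0176). CBS was spread widely within nc groups, from 0.328 to 2.83 FPKM in HCC827, and it has a near-identical copy, CBSL, that can share its reads, so its values are uncertain. ASNS, the asparagine synthetase that is the classical ATF4 target, was weakly expressed. It read 2.15, 2.83 and 2.11 in nc and 1.22, 1.57 and 1.34 in shSYK libraries of EBC-1 (log2FC -0.50), and was under the filter in PC-9, where 0.232 to 0.388 in nc and 0.515 to 0.626 in shSYK libraries rested on 11 to 35 reads, and in HCC827.

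Of the stress effectors, 7 of the 7 tested in EBC-1 were lower without overlap, beside 27.2% of all genes, with a median log2FC of -1.18. In PC-9 the median was 0.17 and in HCC827 -0.03. Most of these effectors were chosen with the EBC-1 differences in view, so nothing is read from the EBC-1 count. GDF15, a secreted stress cytokine, read 543, 511 and 485 FPKM in nc and 84.5, 107 and 87.6 in shSYK libraries of EBC-1, 5.51-fold lower. In HCC827 it fell from 30.1, 32.6 and 51.3 to 7.29, 7.07 and 12.2, 4.29-fold (log2FC -1.98, SE 0.24, adjusted p = 0.00115). In PC-9 the nc values of 18.4, 8.70 and 13.9 all lay above the shSYK values of 6.95, 5.73 and 7.36, a log2FC of -0.88 that did not pass (adjusted p = 0.128) and did without nc 2 (log2FC -1.15, adjusted p = 0.0112). GDF15 was the only one of the 38 genes tested in all 3 lines with lower shSYK values without overlap in each, or 2.63% of them beside 3.19% of all 10030 such genes.

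DDIT4, the mTORC1 inhibitor REDD1, read 480, 376 and 403 FPKM in nc and 135, 141 and 131 in shSYK libraries of EBC-1, 3.0996-fold lower. In HCC827 it read 252, 257 and 277 in nc and 246, 193 and 191 in shSYK libraries, and its call there (log2FC -0.33, adjusted p = 0.0403) was lost under 10 of 14 alternatives. PC-9 overlapped, at 95.4, 66.7 and 85.5 in nc and 75.03, 90.5 and 109 in shSYK libraries. CHAC1, which degrades glutathione, was lower in EBC-1 with 10.4, 7.62 and 9.10 in nc and 5.48, 5.98 and 3.75 in shSYK libraries (log2FC -0.74). In HCC827 CHAC1 fell from 10.8, 13.3 and 19.4 to 8.36, 7.17 and 10.4 (log2FC -0.66, adjusted p = 0.0370), a call lost under 6 of 14 alternatives, and in PC-9 it read 3.70, 2.59 and 3.40 in nc and 4.57, 3.12 and 3.69 in shSYK libraries.

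The other effectors differed between lines. SESN2, a leucine sensor and mTORC1 inhibitor, and PPP1R15A (GADD34), the phosphatase subunit that reverses eIF2 phosphorylation, were lower in EBC-1 by 2.31-fold and 2.57-fold and overlapped in both EGFR-mutant lines. EIF4EBP1, the cap-binding inhibitor 4E-BP1, was lower in EBC-1 (143 to 83.1 FPKM as means, log2FC -0.78) and overlapped in PC-9 (139 to 187, adjusted p = 0.331) and HCC827 (232 to 237). STC2, a secreted glycoprotein, was lower in EBC-1 with 169, 159 and 147 in nc and 117, 117 and 118 in shSYK libraries, and rose in HCC827 from 31.2, 32.8 and 32.7 to 42.1, 39.6 and 38.5 (log2FC 0.30, adjusted p = 0.00511). VLDLR, a lipoprotein receptor, rose in HCC827 (2.43 to 3.30 as means, log2FC 0.33, adjusted p = 0.0153) and was higher in every shSYK library of EBC-1, where it was under the filter, and of PC-9 (log2FC 0.48, adjusted p = 0.0802).

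Of the 12 synthetases and XPOT in EBC-1, 4 of the 13 were lower without overlap and 2 higher, beside 27.2% and 29.7% of all genes, with a median log2FC of 0.06. In PC-9 all 13 had a log2FC above 0, up to 0.45, with 6 higher without overlap, beside 11.4% of all genes. There limma called 0, with 2 at an unadjusted p under 0.05, beside 1881 of all 12089 genes tested. In HCC827, 11 of 13 were above 0 and limma called 6 higher and 0 lower, beside 17.2% and 20.7% of all genes. Equalizing library sums left 13 of the 13 above 0 for PC-9, 12 for HCC827 and 9 for EBC-1.

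AARS, the alanyl-tRNA synthetase, stood apart in EBC-1. It read 310, 368 and 313 FPKM in nc and 139, 144 and 135 in shSYK libraries, 2.37-fold lower. In PC-9 it read 62.4, 40.9 and 45.5 in nc and 59.3, 55.4 and 62.7 in shSYK libraries (log2FC 0.27, adjusted p = 0.495). HCC827 read 85.6, 84.9 and 94.2 in nc and 87.8, 85.8 and 83.1 in shSYK libraries (log2FC -0.04, adjusted p = 0.607), with a sign that changed on rescaling. WARS, the tryptophanyl-tRNA synthetase and also an interferon-induced gene, read 50.4, 72.9 and 54.7 in nc and 38.5, 40.1 and 39.1 in shSYK libraries of EBC-1 (log2FC -0.57), the nc group being spread by nc 2. It overlapped in PC-9, with 7.93, 6.44 and 6.94 in nc and 7.33, 7.87 and 8.40 in shSYK libraries. In HCC827 it also overlapped, with 39.5, 37.5 and 41.8 in nc and 39.6, 42.5 and 41.9 in shSYK libraries. SARS (log2FC -0.56) and CARS (log2FC -0.15) were also lower in EBC-1.

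IARS and TARS, which charge isoleucine and threonine tRNAs, had the lowest adjusted p of the group in HCC827. IARS rose from 26.7, 26.0 and 26.3 FPKM to 34.9, 38.6 and 35.9 (log2FC 0.45, SE 0.06, adjusted p = 0.00114). In PC-9 it read 20.1, 19.0 and 20.4 in nc and 22.3, 23.2 and 24.1 in shSYK libraries, higher in 3 of 3 (log2FC 0.21, adjusted p = 0.331). In EBC-1 the nc values of 23.9, 33.4 and 23.0 enclosed the shSYK values of 28.6, 31.7 and 30.7, with nc 2 the highest of all 6. TARS rose in HCC827 from 30.1, 30.3 and 31.5 to 41.9, 39.4 and 39.7 (log2FC 0.39, adjusted p = 0.00157). It was higher without overlap in PC-9, at 27.5, 32.4 and 32.7 in nc and 38.1, 39.0 and 37.0 in shSYK libraries (adjusted p = 0.244). In EBC-1 it was also higher without overlap, at 27.1, 32.6 and 24.6 in nc and 35.4, 35.3 and 35.2 in shSYK libraries.

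EPRS and TARS were the 2 genes of the 38 tested in all lines whose shSYK libraries lay above all nc libraries in each line, 5.26% of them beside 3.86% of all 10030 such genes. EPRS, the glutamyl-prolyl synthetase, rose in HCC827 with a log2FC of 0.19 (adjusted p = 0.0225) and had log2FC values of 0.46 in EBC-1 and 0.28 in PC-9. NARS, LARS and XPOT also rose in HCC827, with log2FC values of 0.19, 0.28 and 0.31. The EPRS call was lost in the fit of all 18 libraries and without nc 1, nc 2, shSYK 1 or shSYK 3, at adjusted p values up to 0.154. That of LARS was lost without a filter and without nc 1 or any shSYK library, and that of NARS without any library but nc 3. GARS was higher without overlap in PC-9 (34.4 to 47.1 FPKM as means, log2FC 0.45, adjusted p = 0.108) and in HCC827 (40.3 to 43.3, log2FC 0.10, adjusted p = 0.136). MARS and YARS overlapped in all 3 lines.

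**Figure D3:**
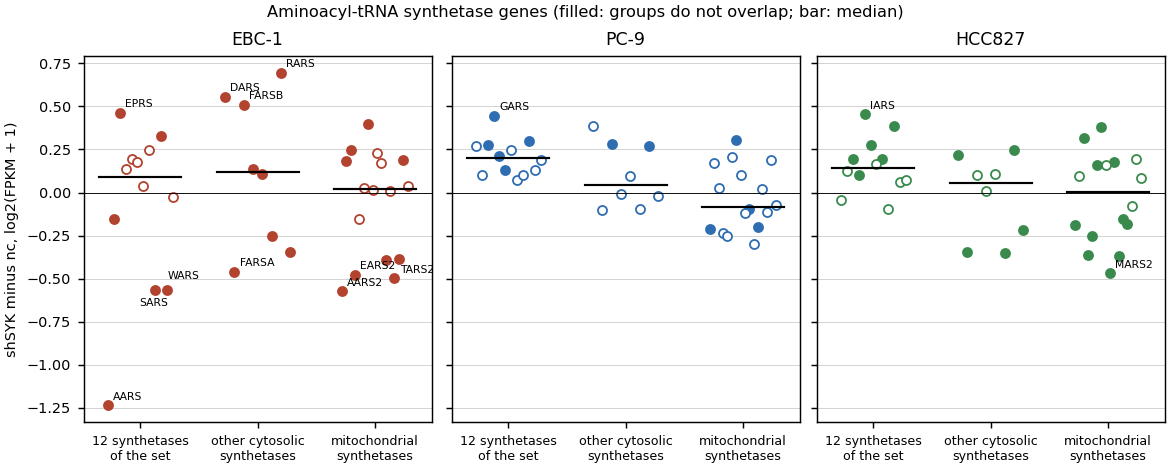
Change on SYK knockdown of the 12 synthetase genes of the set, the other cytosolic synthetases and the mitochondrial synthetases in each line, as the shSYK minus nc difference of log2(FPKM + 1), with a bar at each median and filled points where the groups did not overlap. In PC-9 all 12 of the set lie above 0, while AARS in EBC-1 lies at -1.24.

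The difference between the changes in the EGFR-mutant lines was tested over their 12 libraries with limma. Of 40 genes tested, 3 differed, where 2.50% of all 12382 genes were called with a positive HCC827 minus PC-9 difference and 2.54% with a negative one. At an unadjusted p under 0.05 there were 12, a count whose share over all genes was not computed. CTH differed by 0.72 (SE 0.13, adjusted p = 0.00784), rising in HCC827 and lower in PC-9. JDP2 differed by 0.73 (SE 0.18, adjusted p = 0.0371), with 0.26 in HCC827 and -0.47 in PC-9. MTHFD2 differed by -0.46 (SE 0.11, adjusted p = 0.0274), at -0.02 in HCC827 and 0.43 in PC-9. CTH kept its call when each library was left out in turn, whereas JDP2 and MTHFD2 each lost theirs without any 1 of 8 of the 12 libraries. MTHFD2 also lost it with equal sums (adjusted p = 0.0715), quantile normalization (0.0570), limma-voom (0.0655) and a replicate block (0.0560), and JDP2 without a filter (0.0796) and with a pseudocount of 0.1 (0.0524). Without PC-9 nc 1, 12 genes differed, and the share over all genes was not computed for that fit. For GDF15 the difference of -1.10 did not pass (adjusted p = 0.131), nor did that of TRIB3 at -0.62 (adjusted p = 0.103). The median difference over the 40 genes was -0.13, beside -0.01 over all genes.

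**Figure D4:**
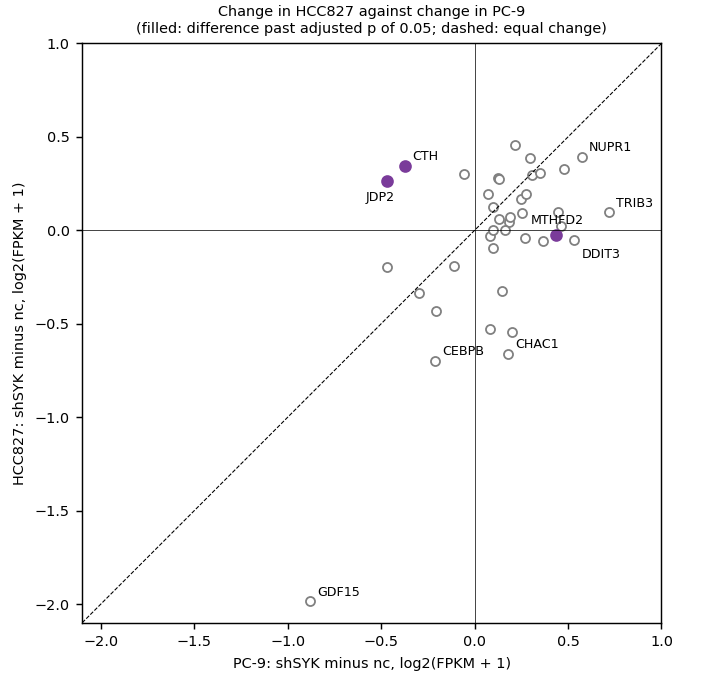
Change in HCC827 against change in PC-9 for the 40 genes tested, both as the shSYK minus nc difference of log2(FPKM + 1), with filled points for the 3 genes whose difference passed the threshold. CTH and JDP2 lie in the upper left and MTHFD2 lies on the line of no change in HCC827, while GDF15 is lowest in both lines, at -0.88 and -1.98.

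The nc cells of the 3 lines started from different levels. Wide gaps were seen in DDIT3, whose EBC-1 nc mean of 171 FPKM compares with 3.94 in PC-9 and 10.1 in HCC827, and in GDF15, at 513 against 13.7 and 38.0. STC2 (158 against 12.3 and 32.3), SESN2 (48.8 against 3.56 and 9.12) and AARS (331 against 49.6 and 88.2) were also higher in EBC-1, as was the weakly expressed ASNS (2.36 against 0.306 and 0.254). For 17 of the 42 genes every EBC-1 nc library lay above every nc library of the other lines, and for 25 this was not so. The share over all genes was not computed for this comparison, so nothing is read from the count. PSPH (12.4 against 24.0 and 56.4), EPRS (14.9 against 34.1 and 32.2) and ATF5 (1.48 against 3.45 and 7.69) were lower in EBC-1. The EBC-1 nc values also entered the contrast that chose most of these genes. ATF4 mRNA averaged 130 FPKM in EBC-1 nc, 224 in PC-9 nc and 137 in HCC827 nc, and the EBC-1 and HCC827 libraries overlapped. The 3 lines stand in separate tables and were not tested against each other.

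Other genes of the same pathways, from lists of 74 genes outside the set, were tested in all lines. These lists were also drawn up with earlier results of these data known, so their counts and p-values are descriptive. In EBC-1, 13 of 70 tested rose and 22 fell, beside 23.1% and 21.6% of all genes called. In PC-9, 13 of 67 had an unadjusted p under 0.05, beside 1881 of all 12089 genes tested. Of the 67, limma called 0 higher and 3 lower, beside 0.678% and 1.41% of all genes. The 3 were the arginine enzyme ASS1, the glutamine synthetase GLUL and the leucine transporter SLC7A5. These PC-9 calls were all lost without a filter, without nc 3 and without each shSYK library. In HCC827, 14 of 67 rose and 21 fell, beside 17.2% and 20.7% of all genes. Of 8 amino acid transporters tied to ATF4, 5 fell and 0 rose in EBC-1. Of the 7 tested in HCC827, 4 fell and 1 rose, and of the 7 in PC-9, 1 fell and 0 rose. SLC7A5 was called lower in all 3 lines, with log2FC values of -1.29 in EBC-1 (adjusted p = 0.000673), -1.29 in PC-9 (adjusted p = 0.0406) and -2.01 in HCC827 (adjusted p = 1.77e-05). ASS1 fell in PC-9 (log2FC -1.32, adjusted p = 0.0132) and HCC827 (log2FC -1.44, adjusted p = 0.00197), and rose in EBC-1 (log2FC 0.37, adjusted p = 0.00591). GLUL fell in PC-9 (log2FC -0.81, adjusted p = 0.0331) and EBC-1 (log2FC -0.39, adjusted p = 0.0249), and rose in HCC827 (log2FC 0.19, adjusted p = 0.0315).

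The counts of each list below stand beside the same all-gene shares, 23.1% higher and 21.6% lower in EBC-1 and 17.2% and 20.7% in HCC827. Of the remaining cytosolic synthetases, 3 of 8 rose and 2 fell in EBC-1, led by RARS (log2FC 0.70, adjusted p = 0.000466). In HCC827, 2 of 8 rose and 3 fell, led by QARS (log2FC -0.35, adjusted p = 0.00603). Of 16 mitochondrial synthetases, 2 rose and 5 fell in EBC-1, led by AARS2 (log2FC -0.57, adjusted p = 0.00371), and 3 rose and 4 fell in HCC827, led by MARS2 (log2FC -0.47, adjusted p = 0.000656). Of 16 eIF2 kinases, eIF2 subunits and related factors, 5 rose and 1 fell in EBC-1, the last being the stress factor ATF3 (log2FC -0.96, adjusted p = 0.00138). In HCC827 5 rose and 3 fell, led by the eIF2 gamma subunit EIF2S3 (log2FC 0.60, adjusted p = 0.000540). Of 16 further amino acid and one-carbon enzymes, 3 rose and 4 fell in EBC-1, and of 14 in HCC827, 3 rose and 5 fell.

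Markers of ER stress moved beside the ATF4 targets in EBC-1, and 5 of 6 fell, beside 21.6% of all genes. HSPA5, the ER chaperone BiP, read 1072, 1602 and 1004 FPKM in nc and 198, 204 and 219 in shSYK libraries (log2FC -2.53, adjusted p = 8.47e-05). HERPUD1 and SDF2L1 fell by 2.52 and 2.49 on the log2 scale, DNAJB9 by 1.73 and XBP1 by 0.92, while HSP90B1, highest in nc 2, did not pass (log2FC -0.64, adjusted p = 0.0506). In PC-9 none of the 6 passed the threshold of limma, and the median log2FC was 0.22. At an unadjusted p under 0.05 there were 2, beside 1881 of all 12089 genes tested. In HCC827, 2 fell, XBP1 (log2FC -0.66, adjusted p = 0.0126) and SDF2L1 (log2FC -0.41, adjusted p = 0.00516), and none rose. The list of these markers was also drawn up with earlier results of these data known, so its counts and p-values are descriptive. The part of ER stress in the EBC-1 values of the ATF4 targets was not tested.

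**Figure D5:**
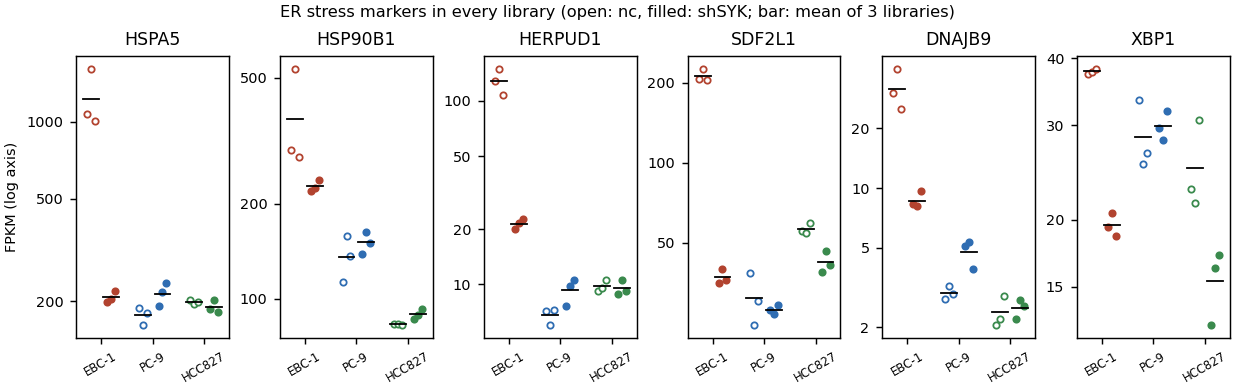
FPKM on a log axis of 6 ER stress markers in each of the 18 libraries, with open points for nc, filled points for shSYK and a bar at the mean of 3 libraries. The EBC-1 nc libraries stand above all others, and HSPA5 goes from between 1004 and 1602 in nc to between 198 and 219 in shSYK libraries.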

How the data were processed

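RNA was extracted with TRIzol and sequenced on an Illumina HiSeq by a service provider, and the authors deposited FPKM values per gene for each library, in 1 table per line. The study's methods name hg38, and the submitters' processing notes name CASAVA and HISAT2 without versions or roles. The counting program, annotation and strand setting are not given in the sources used here, nor is the denominator of the deposited FPKM. The denominator was estimated from the values themselves. FPKM multiplied by the deposited gene length and that denominator gave whole reads (within 0.05) for 100% of values, and depth is the sum of these reads. In EBC-1 the ratio of denominator to depth was 0.969 to 1.008 in nc libraries and 1.034 to 1.072 in shSYK libraries. Deposited coordinates of the 42 genes overlapped GENCODE v44 (GRCh38) for 42 of 42.

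log2(FPKM + 1) was tested in each line with limma 3.58.1 (R 4.3.3, trended empirical Bayes, two-sided, Benjamini-Hochberg), for genes averaging 1 FPKM or more in the line, at an adjusted p under 0.05. The HCC827 minus PC-9 difference came from 1 fit of 12 libraries. The code was tested on simulated data. Alternatives were a pseudocount of 0.1, no filter or a minimum of 5, equal library sums, quantile normalization, limma-voom on recovered reads, a replicate block, a fit of all 18 libraries and leaving out each library. The genes and all lists were chosen with earlier results of these data known. Values in every library are given for ATF4 and, in each functional group, for the 2 genes with the largest log2FC in EBC-1 and in HCC827. Further genes were added after their values were seen. Of the other lists, the called gene with the largest log2FC in each list and line is named, except 1 that is not reported here. Promoters came from RefSeq (GRCh38.p14). Figures were drawn with matplotlib 3.10.9.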

Additional observations from a re-analysis of the deposited data

Results flagged for a closer look

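CTH, JDP2 and MTHFD2 are listed because their changes differed between the EGFR-mutant lines by the test of the difference itself, with HCC827 minus PC-9 differences of 0.72, 0.73 and -0.46. The JDP2 and MTHFD2 calls were lost under several alternatives.

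For 5 genes, MTHFD2 and CTH among them, every shSYK library lay below every nc library in EBC-1 and above every nc library in another line, and the difference between the lines was not tested. The share of all genes with such opposite directions was not computed. The EBC-1 contrast also chose most of the genes described here, so nothing is read from the count. DDIT3 had a log2FC of -3.88 in EBC-1 and 0.53 in PC-9. TRIB3 had -1.64 and 0.72, and MTHFD2 had -0.38 and 0.43, in the same lines. CTH had -0.70 in EBC-1 and 0.35 in HCC827, and STC2 had -0.43 and 0.30.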

How the results depend on the processing

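In EBC-1, 2 of 39 genes, PSAT1 and YARS, changed sign when libraries were rescaled, and counts not overlapping ran from 4 to 10 higher when each library was left out, with 10 without EBC-1 nc 2. In PC-9 the counts depended on the processing. Called higher and lower were 3 and 2 with equal library sums, 4 and 1 with quantile normalization, 5 and 1 with limma-voom and 8 and 3 in the fit of all 18 libraries, and leaving out a library gave 0 to 7 (7 without nc 1) and 0 to 1 (1 without nc 2). Not overlapping were 13 to 24 higher and 3 to 7 lower when a library was left out, and 6 lower with equal sums. Other pathway genes called were 0 without a filter, 14 in the fit of all 18 and 0 (without nc 3 or any shSYK library) to 5 (without nc 2). In HCC827, genes called lower were 4 without a filter, and 4 (without shSYK 2) or 5 (without shSYK 1) to 7 without a library. Called higher ran from 7 (without shSYK 3) to 13, not overlapping higher from 12 to 21 (without nc 3), and 23 other pathway genes were called in the fit of all 18. The HCC827 minus PC-9 calls ran from 1 (without PC-9 nc 3, any PC-9 shSYK library, HCC827 nc 2 or HCC827 shSYK 1) to 12 (without PC-9 nc 1). The shares over all genes were not computed under these alternatives, so the counts have no background beside them. The causes were not tested.

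Small differences changed sign. With quantile normalization ATF4 in PC-9 was at -0.0083, and in HCC827 ATF4 was at 0.0409 and AARS at 0.0352. With equal sums in HCC827, ATF4 was at 0.0293, DDIT3 at 0.0043 and AARS at 0.0185, and with limma-voom ATF4 was at 0.0354 and AARS at 0.0241. Leaving out each library gave -0.0379 (without nc 2) to 0.1982 for ATF4 and -0.2946 to 0.0944 (without nc 1) for PYCR1 in PC-9. In HCC827 it gave -0.1826 to 0.1166 (without nc 3) for DDIT3 and -0.0687 to 0.0053 (without nc 3) for AARS.

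Same-numbered libraries correlated at -0.22 to 0.33 in their deviations from group means, and differently numbered ones at -0.36 to 0.38. With 3 libraries a group these values cannot decide whether the numbers pair the libraries. Under a replicate block limma called 10 genes higher and 7 lower in HCC827 and 0 in PC-9. Weakly expressed genes such as ALDH1L2, with 3 to 38 reads, limit what this depth shows.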
